A study of Mus musculus with 8 samples.

Results

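The genes described here are the Hox genes of clusters A to D, chosen by name: a row whose symbol is Hox followed by the letter a, b, c or d and a number, on chromosomes 6, 11, 15 and 2. They come to 38 of the 21352 genes in the files, with 10 in cluster A, 10 in cluster B, 9 in cluster C and 9 in cluster D. The study profiled H3K27me3 with low-input CUT&RUN, in which an antibody tethers micrococcal nuclease to a chromatin mark and the cut fragments are sequenced, in mouse primordial germ cells, the embryonic precursors of eggs and sperm. The H3K27me3 libraries were 1 from female cells at E12.5 and 1 from female cells at E11.5. The libraries made with a non-specific IgG, which measure untargeted cutting, were 1 from male cells at E11.5, 1 from female cells at E12.5 and 1 from female cells at E13.5. All cells were of the strain B6 x Cast and carried Oct4-eGFP+/-, a fluorescent reporter of a pluripotency gene that germ cells keep active. The females were Xist KO/+ and the males Xist KO/Y, so the IgG library at E11.5 differed from the H3K27me3 library at E11.5 in sex and genotype as well as in antibody. The cells were sorted by flow cytometry from embryos pooled within a sex, with the gate not given in the sources used here, and no library without the Xist knockout allele was among them.

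Hox genes encode homeodomain transcription factors that give cells their position along the head-to-tail axis and in the limbs and urogenital tract. Each cluster is a row of genes whose order on the chromosome follows their order of expression along the body, from anterior (low paralogue numbers) to posterior (high numbers), and genes with the same number in different clusters are paralogues. H3K27me3 is deposited by a Polycomb complex, and Hox clusters are among its textbook targets: in cells that do not use a Hox gene the mark typically covers the silent part of the cluster, while Trithorax proteins maintain the active part. Primordial germ cells migrate into the gonad and reset most of their DNA methylation around these stages, and they do not take part in the patterning of the body axis.

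The deposited values were whole-number counts of reads assigned to either of the 2 parental alleles. Autosomal allelic reads numbered 5020062 in H3K27me3 at E12.5 and 2356356 in H3K27me3 at E11.5, against 1357583, 1515532 and 5705401 in IgG at E11.5, E12.5 and E13.5. A level is the number of reads of both alleles for every 1000000 autosomal reads of that library, written RPM. With 1 library in each group there was no spread between replicates, so no p-value between groups is given, and 95% intervals, in parentheses after a fold, cover counting error only. The label of the cells could be set only beside the mark and not beside expression, since no RNA was measured. Of 12 germ cell markers with enough reads, 0 reached 2-fold over the summed IgG reads at E12.5 (median log2 ratio −0.74, with Dazl lowest at −1.58 and Pou5f1 highest at −0.02), while 8 of 9 somatic gonad markers did (median log2 ratio 2.02, with Nr2f2 highest at 3.17 and Amh, the exception, at −0.34). Of 6 blood and endothelial markers 1 did (Tal1 highest at 3.07, Pecam1 lowest at −1.08), and of 10 housekeeping genes 0 did (Ppia highest at −0.64, Polr2a lowest at −1.32). Over all autosomal genes with enough reads 14.5% did, so only the count of the somatic gonad list stood far from that share.

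The clusters span 96.9 to 174 kb each. From the first to the last reported Hox gene they cover chr6:52162417-52260880, chr11:96194316-96368254, chr15:102921131-103036856 and chr2:74668225-74765142 for clusters A, B, C and D, by the RefSeq annotation of GRCm38.p6, the assembly behind mm10. The RefSeq promoter table held 24 entries for 22 of the 38 genes. In the 250 bases before these starts, the dinucleotide CG, which reads the same on both strands, occurred 2 to 35 times, and over 31396 autosomal promoters of the same length its median was 6. At least 1 CG was present in 92.4% of all promoters, and 32.1% of them held at least as many as the median Hox window. The windows below show the range of CG content among Hox genes that carried the mark: the richest one (Hoxa13, 35 CG), that of another paralogue of position 13 (Hoxd13, 31 CG), the poorest one (the more upstream of 2 starts of Hoxd11, 2 CG), and that of the gene with the lowest ratio over IgG at E12.5 (Hoxd8, 6 CG). Capitals mark CG, and each sequence runs 5′ to 3′ on the strand of its gene.
Hoxa13: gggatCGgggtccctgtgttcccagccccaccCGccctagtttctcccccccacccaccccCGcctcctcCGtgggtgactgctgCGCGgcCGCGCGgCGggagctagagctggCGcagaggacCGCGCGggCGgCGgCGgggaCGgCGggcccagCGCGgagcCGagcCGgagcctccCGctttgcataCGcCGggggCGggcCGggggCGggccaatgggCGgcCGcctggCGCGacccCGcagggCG
Hoxd13: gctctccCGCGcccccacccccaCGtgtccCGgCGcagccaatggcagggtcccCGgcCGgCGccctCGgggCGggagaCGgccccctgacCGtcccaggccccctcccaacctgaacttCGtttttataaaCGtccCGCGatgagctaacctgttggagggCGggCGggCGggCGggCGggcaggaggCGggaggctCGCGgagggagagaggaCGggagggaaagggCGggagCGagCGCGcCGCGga
Hoxd11: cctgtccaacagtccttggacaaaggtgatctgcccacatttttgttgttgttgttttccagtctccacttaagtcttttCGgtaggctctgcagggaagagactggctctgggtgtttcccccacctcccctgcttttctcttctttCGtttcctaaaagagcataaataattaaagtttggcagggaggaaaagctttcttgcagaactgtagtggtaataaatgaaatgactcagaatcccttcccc
Hoxd8: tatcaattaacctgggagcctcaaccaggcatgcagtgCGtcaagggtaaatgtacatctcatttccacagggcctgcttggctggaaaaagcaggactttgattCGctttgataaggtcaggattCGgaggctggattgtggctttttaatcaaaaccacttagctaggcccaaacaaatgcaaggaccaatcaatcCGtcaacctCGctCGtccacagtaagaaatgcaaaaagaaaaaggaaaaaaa
The positions in GRCm38.p6 are chr6:52260881-52261130, minus strand, for Hoxa13, chr2:74667975-74668224, plus strand, for Hoxd13, chr2:74679308-74679557, plus strand, for Hoxd11 and chr2:74704365-74704614, plus strand, for Hoxd8. At E12.5 Hoxa13 was 10.3-fold, Hoxd13 8.94-fold, Hoxd11 12.7-fold and Hoxd8 4.60-fold over summed IgG. The window of the other Hoxd11 start held 20 CG, so the fold of Hoxd11 belongs to no single count. A relation between fold and CG count was not tested. The reads were counted over gene bodies, so these folds are not promoter levels.

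Of the 38 Hox genes, 31 had reads, and 7 were listed at 0 reads in all 5 libraries: Hoxa4, Hoxa5 and Hoxa6, Hoxc6, Hoxc8 and Hoxc9, and Hoxd4. Hoxa4, Hoxa5 and Hoxa6 lie inside the RefSeq span of Hoxa3, and Hoxd4 lies inside that of Hoxd3. Hoxc6, Hoxc8 and Hoxc9 lie inside a span of the length listed for Hoxc5 (49987 bases), counted back from the RefSeq end of Hoxc5, whose RefSeq length is 3422 bases. The same span covers most of Hoxc10, which had reads. Hoxb4, with 144 reads over the 5 libraries, lies inside the RefSeq span of Hoxb3 (40830 bases). It lies outside a span of the length listed for Hoxb3 (24605 bases), counted back from the RefSeq end of Hoxb3. Over all autosomes, 5.32% of genes had no read in any library. The 7 genes are treated as not measured, and their 0 is not read as a lack of the mark. How reads in overlapping genes were counted is not given in the sources used here, and its part in these values was not tested. The 31 measured genes were 7 in cluster A, 10 in B, 6 in C and 8 in D.

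The mark covered every Hox gene that could be measured, at both stages. Together the 31 genes had 1735 RPM with H3K27me3 at E12.5 and 1807 with H3K27me3 at E11.5, against 191, 205 and 139 with IgG at E11.5, E12.5 and E13.5. Both H3K27me3 libraries lay far above all 3 IgG libraries. Over the IgG library of the same stage this was 8.48-fold (7.57 to 9.53) at E12.5 and 9.47-fold (8.35 to 10.8) at E11.5, and over the 3 IgG libraries summed it was 10.9-fold (10.3 to 11.6) and 11.4-fold (10.7 to 12.1) at the same stages. Because single Hox genes had few IgG reads, 3 to 220 over all 3 libraries, the folds of single genes are over the summed IgG reads, of which the E13.5 library gave 793 of 1362.

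**Figure D1:**
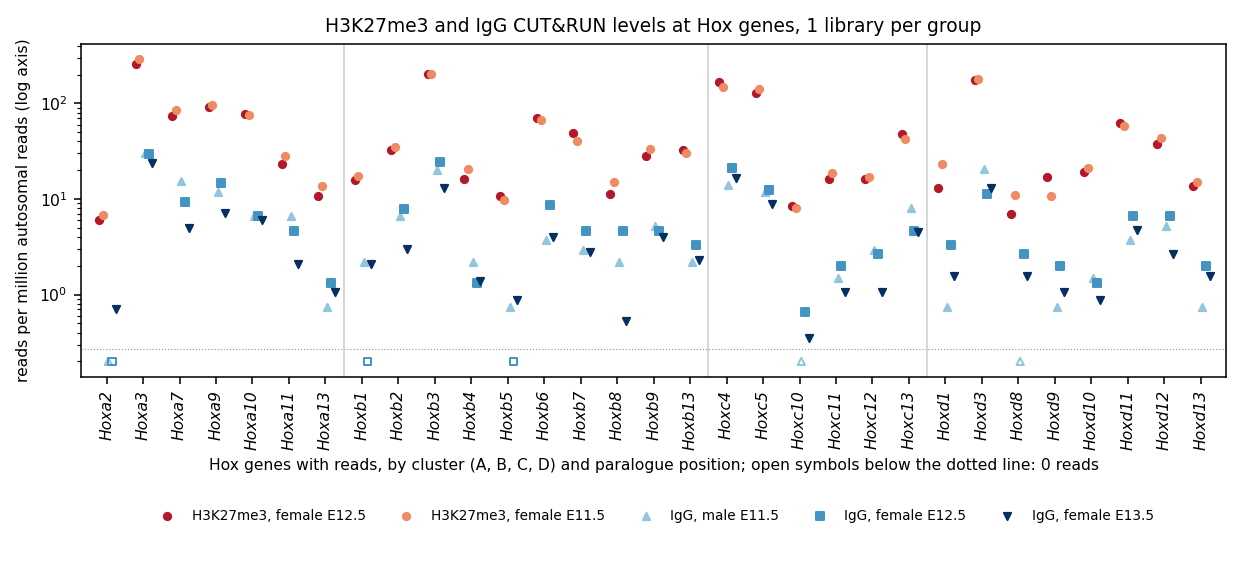
RPM, the reads of both alleles scaled to 1000000 autosomal reads (log axis), at each of the 31 Hox genes with reads, in order of cluster and paralogue position, with 1 symbol for each library. Both H3K27me3 symbols lie above all IgG symbols at every gene, and open symbols mark an IgG library with 0 reads.

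Gene by gene, 31 of 31 Hox genes were at least 2-fold over summed IgG at E12.5, where 14.5% of all autosomal genes were, and 31 of 31 were at E11.5, where 15.4% were. These counts use the log2 ratio with a pseudocount of 1 RPM, over the genes that reached 20 reads when both sides were added. At least 4-fold were 30 of 31 at E12.5 (4.89% of all genes), the exception being Hoxd8, and 31 of 31 at E11.5 (6.55% of all genes). A minimum reached through the H3K27me3 reads favours genes with the mark, so the count was repeated over genes with at least 20 summed IgG reads: 17 Hox genes qualified and 17 of 17 were at least 2-fold at E12.5 (13.7% of all genes) and 17 of 17 at E11.5 (14.5% of all genes). The lower bound of the counting interval lay above 2-fold for 31 of 31 genes at E12.5, where it did for 11.1% of all genes, and for 31 of 31 genes at E11.5, where it did for 11.9%. Against the IgG library of the same stage alone, 31 of 31 genes with enough reads passed 2-fold at E12.5 (15.2% of all genes) and 29 of 29 at E11.5 (17.2% of all genes).

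The median log2 ratio of the Hox genes was 2.99 at E12.5 (range 1.66 to 3.61) and 3.11 at E11.5 (range 2.26 to 3.71). Over all autosomal genes it was −0.47 at E12.5 and −0.49 at E11.5. Relative to the median of all genes, the Hox median was 3.46 at E12.5 and 3.60 at E11.5. Among all genes tested, 5 of the 10 highest ratios at E12.5 belonged to Hox genes, as did 15 of the 100 highest. At E11.5 these numbers were 0 of 10 and 8 of 100, and all 31 stood among the 1000 highest. Per kilobase of listed gene length, the median Hox level was 6.17 RPM at E12.5 and 6.67 at E11.5, against 0.640 in summed IgG. The median level over all 19284 autosomal genes with reads was 0.734 at E12.5 and 0.723 at E11.5, against 1.09 in summed IgG. The Hox median was thus the higher one with H3K27me3 and the lower one with IgG.

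**Figure D2:**
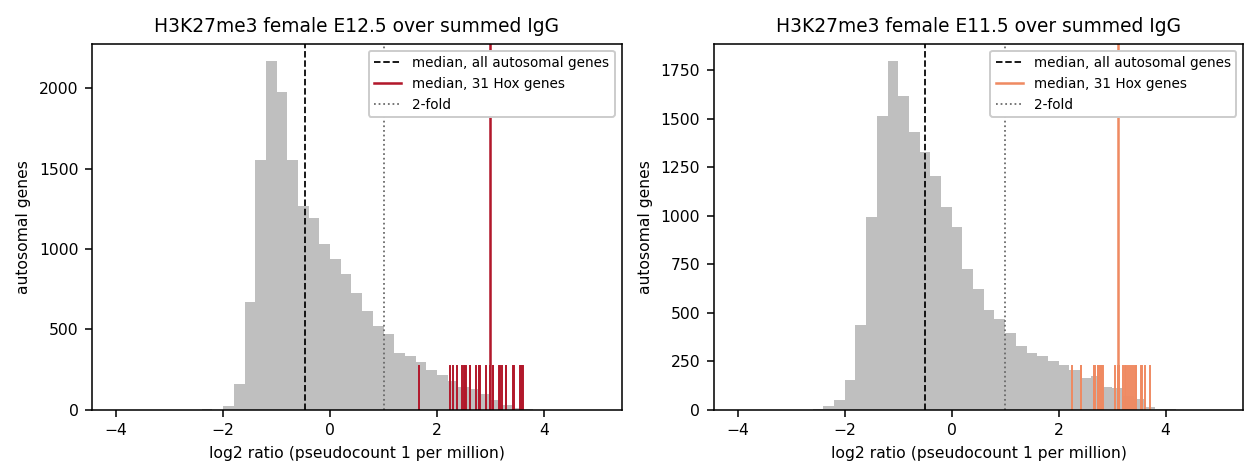
Histograms of the log2 ratio of H3K27me3 over summed IgG for all autosomal genes tested (left, E12.5; right, E11.5), with short coloured lines at the Hox genes. The 31 Hox genes occupy the right tail, with medians of 2.99 at E12.5 and 3.11 at E11.5, against medians of −0.47 and −0.49 over all genes at the same stages.

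In cluster A, on chromosome 6, the 7 measured genes together were 8.19-fold (6.71 to 10.1) over the IgG library of the same stage at E12.5 and 8.35-fold (6.79 to 10.4) at E11.5. The highest log2 ratio belonged to Hoxa10, which patterns the lumbar spine and the uterus: it had 76.7 RPM at E12.5 and 75.5 at E11.5 with H3K27me3, against 6.63, 6.60 and 5.96 with IgG at E11.5, E12.5 and E13.5. Every H3K27me3 value lay above every IgG value, and the gene was 12.4-fold over summed IgG at E12.5 (95% interval 9.30 to 16.9) and 12.2-fold at E11.5 (8.95 to 16.9). The lowest belonged to Hoxa2, which gives the second branchial arch its identity, with 5.98 RPM at E12.5 and 6.79 at E11.5, against 0, 0 and 0.701 in the 3 IgG libraries. Hoxa2 had only 30 and 16 H3K27me3 reads at E12.5 and E11.5 and 4 in summed IgG, so its fold without a pseudocount, 12.8-fold (4.52 to 50.1) at E12.5, was not low and was imprecise.

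Hoxa3, needed for the thymus and parathyroid, held the most reads of any Hox gene: 259 RPM at E12.5 and 291 at E11.5 with H3K27me3, against 30.2, 29.7 and 23.5 with IgG. It was 10.1-fold over summed IgG at E12.5 (95% interval 8.73 to 11.7) and 11.3-fold at E11.5 (9.72 to 13.3). Hoxa7, a trunk-patterning gene, had 73.7 and 84.9 RPM with H3K27me3 at E12.5 and E11.5, against 15.5, 9.24 and 4.91 with IgG, and was 10.04-fold (7.67 to 13.3) over summed IgG at E12.5. Among the posterior genes, Hoxa9, known from haematopoietic progenitors, was 9.95-fold (7.82 to 12.8) at E12.5. Hoxa11, which acts in the forearm and uterus, was 7.14-fold (4.69 to 11.2), and Hoxa13, a gene of the digits and the genital tubercle, was 10.3-fold (5.02 to 23.6). The intervals of these genes overlapped.

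Cluster B, on chromosome 11, was 7.86-fold (6.36 to 9.81) over the IgG library of the same stage at E12.5 and 9.79-fold (7.62 to 12.8) at E11.5, over 10 measured genes. Hoxb6, a trunk gene, had the highest log2 ratio of all Hox genes at E12.5 (3.61): 69.5 RPM at E12.5 and 66.2 at E11.5 with H3K27me3, against 3.68, 8.58 and 4.03 with IgG. It was 14.5-fold over summed IgG at E12.5 (95% interval 10.5 to 20.6) and 13.9-fold at E11.5 (9.77 to 20.05). Hoxb8, known for its role in a lineage of microglia, had the lowest log2 ratio of the cluster: 11.4 RPM at E12.5 and 14.9 at E11.5, against 2.21, 4.62 and 0.526 with IgG. Its H3K27me3 values still lay above all 3 IgG values, at 7.49-fold over summed IgG at E12.5 (95% interval 4.05 to 14.9) and 9.80-fold at E11.5 (5.06 to 20.2).

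The other cluster B genes lay between these in log2 ratio. Without a pseudocount the E12.5 folds of Hoxb2 and Hoxb9 were below that of Hoxb8, with overlapping intervals. The anterior genes Hoxb1 and Hoxb2, which pattern the hindbrain, were 9-fold (5.14 to 16.8) and 7.33-fold (5.12 to 10.7) over summed IgG at E12.5. Hoxb3, also a hindbrain gene and the longest of the cluster in the files (24605 bases), was 12.4-fold (10.3 to 14.9). Hoxb4, which can expand haematopoietic stem cells, was 10.8-fold (5.97 to 21.1). Hoxb5, a gene of the trunk and enteric neural crest, was 15.4-fold (6.62 to 43.7). Hoxb7 was 15.5-fold (10.4 to 24.0) and the trunk gene Hoxb9 6.56-fold (4.54 to 9.69). Hoxb13, which lies apart from the others at the posterior end and acts in the prostate and tail, was 13.4-fold (8.50 to 22.3). Hoxb7 and Hoxb9, both with at least 27 IgG reads, had intervals that did not overlap at E12.5. The E12.5 intervals of Hoxb3 and Hoxb6 also lay above that of Hoxb9. At E11.5 the intervals of Hoxb3, Hoxb6 and Hoxb7 all overlapped that of Hoxb9 (5.13 to 11.7).

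Cluster C, on chromosome 15, was 8.80-fold (6.88 to 11.4) over the IgG library of the same stage at E12.5 and 9.85-fold (7.44 to 13.3) at E11.5, over 6 measured genes. Its highest log2 ratio belonged to Hoxc5, with 128 RPM at E12.5 and 142 at E11.5 with H3K27me3, against 11.8, 12.54 and 8.76 with IgG, or 12.9-fold over summed IgG at E12.5 (95% interval 10.3 to 16.4) and 14.3-fold at E11.5 (11.3 to 18.4). Given its listed length, this value may hold the reads of Hoxc6, Hoxc8 and Hoxc9 as well, and some of those of Hoxc10. The lowest log2 ratio was that of Hoxc12: 16.3 RPM at E12.5 and 17.0 at E11.5, against 2.95, 2.64 and 1.05 with IgG, or 10.01-fold over summed IgG at E12.5 (95% interval 5.64 to 19.1) and 10.4-fold at E11.5 (5.54 to 20.7). Hoxc4, an anterior trunk gene, was 9.80-fold (8.21 to 11.8) at E12.5. Hoxc11 was 12.6-fold (6.67 to 26.2), and Hoxc13, required in hair follicles and nails, was 9.28-fold (6.71 to 13.1). Without a pseudocount Hoxc12, with 14 summed IgG reads, was thus not the lowest, and its interval overlapped those of Hoxc4 and Hoxc13. The largest fold without a pseudocount was that of Hoxc10, a lumbar gene, at 23.9-fold (7.65 to 121), which rests on 3 IgG reads. Most of Hoxc10 lies inside the span of the length listed for Hoxc5.

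Cluster D, on chromosome 2, was 9.68-fold (7.39 to 12.9) over the IgG library of the same stage at E12.5 and 10.98-fold (8.14 to 15.2) at E11.5, over 8 measured genes. Hoxd3, which shapes the first cervical vertebra, had the highest log2 ratio: 175 RPM at E12.5 and 182 at E11.5 with H3K27me3, against 20.6, 11.2 and 12.97 with IgG, or 12.6-fold over summed IgG at E12.5 (95% interval 10.4 to 15.4) and 13.1-fold at E11.5 (10.7 to 16.2). Hoxd8, a trunk gene, had the lowest ratio of all Hox genes at both stages. It had 6.97 RPM at E12.5 and 11.03 at E11.5 with H3K27me3, against 0, 2.64 and 1.58 with IgG. Hoxd8 was 4.60-fold over summed IgG at E12.5 (95% interval 2.37 to 9.48) and 7.28-fold at E11.5 (3.61 to 15.4). Over the IgG library at E12.5 alone it was 2.64-fold (0.945 to 10.2) at E12.5, an interval that includes 1.

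The posterior genes of cluster D, known from limb, digit and genital development, were all covered. At E12.5 Hoxd9 was 14.5-fold (7.52 to 31.4), Hoxd10 18.04-fold (9.11 to 40.7) and Hoxd11 12.7-fold (9.21 to 18.02) over summed IgG. Hoxd12 was 10.1-fold (6.95 to 15.3) and Hoxd13 8.94-fold (4.89 to 17.6), and all of these intervals overlapped. At the anterior end, Hoxd1, known from pain-sensing neurons, was 7.52-fold (4.25 to 14.2). Per kilobase, the highest Hox level at E12.5 was that of Hoxd12, at 14.1 RPM, against 1.39 in summed IgG. The lowest was that of Hoxc10, at 1.64, against 0.0686 in summed IgG, so genes with a low level per kilobase could be low in both antibodies. Most of Hoxc10 lies inside the span of the length listed for Hoxc5, and the part of this overlap in its level was not tested. How many strain variants each gene holds is not known here, and levels per kilobase depend on it, whereas ratios to IgG use the same positions in both.

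The intervals of the 4 clusters over the IgG library of the same stage overlapped at each stage, as did those of the anterior, central and posterior genes. At E12.5 the anterior genes (positions 1 to 3) were 10.9-fold (9.999 to 11.99) over summed IgG, the central genes (4 to 8) 11.2-fold (10.1 to 12.48) and the posterior genes (9 to 13) 10.6-fold (9.56 to 11.8). At E11.5 the same classes were 11.8-fold (10.7 to 13), 11.4-fold (10.2 to 12.7) and 10.8-fold (9.69 to 12.2). Of the 3522 anterior reads at E12.5, 3184 were at position 3. The RefSeq spans of Hoxa3 and Hoxd3 hold central genes without reads. The listed length of the central gene Hoxc5 spans the posterior gene Hoxc9 and most of Hoxc10. The classes may thus hold each other's reads, which was not tested. Spearman's rho between paralogue number and log2 ratio over the 31 genes was −0.02 at E12.5 and −0.11 at E11.5, as a description, since the genes of a cluster share libraries and neighbourhood. The log2 ratios at E12.5 and E11.5 had a rho of 0.83, and both share the same summed IgG reads. The log2 ratio also had a rho of 0.58 at E12.5 and 0.64 at E11.5 with the number of summed IgG reads, and a pseudocount by its construction lowers the ratio of genes with few reads.

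By single paralogue number, the fold over summed IgG at E12.5 was highest at position 6, measured by Hoxb6 alone, at 14.5-fold (10.5 to 20.6). Position 10 followed at 13.7-fold (10.6 to 18.05) and position 5 at 13.1-fold (10.5 to 16.4). It was lowest at position 8, measured by Hoxb8 and Hoxd8, at 6.05-fold (3.88 to 9.74), and next lowest at position 2, measured by Hoxa2 and Hoxb2, at 7.85-fold (5.60 to 11.2). The intervals of positions 8 and 10 did not overlap at E12.5, whereas at E11.5 position 8 was 8.54-fold (5.32 to 14.1) and position 10 13.8-fold (10.5 to 18.5), with overlapping intervals. Against the IgG library at E12.5 alone, position 6 was not the highest: it came to 8.10-fold (4.68 to 15.4), position 10 to 12.1-fold (7.03 to 22.9) and position 5 to 11.1-fold (7.03 to 18.5), with overlapping intervals. Against the same library, position 8 came to 2.52-fold (1.347 to 5.23) and position 2 to 4.86-fold (2.72 to 9.56).

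Most genes around the clusters were under 2-fold over IgG. The 5 nearest non-Hox genes on each side of each cluster gave 40 neighbours, of which 39 had enough reads. At least 2-fold over summed IgG were 4 of 39 at E12.5 and 3 of 39 at E11.5, against 14.5% and 15.4% of all genes at these stages, with median log2 ratios of −0.72 and −0.85. The neighbours past 2-fold at E12.5 were each the nearest one on their side of a cluster. Evx2, an even-skipped type homeobox gene beside Hoxd13, was 6.998-fold (4.97 to 10.1) at E12.5 and 6.93-fold (4.72 to 10.3) at E11.5. Evx1, its paralogue beside Hoxa13, was 2.17-fold (1.505 to 3.13) at E12.5 and 1.95-fold (1.21 to 3.09) at E11.5 and so was under 2-fold at E11.5. Ttll6, which encodes a tubulin polyglutamylase, beside Hoxb13, was 3.998-fold (3.53 to 4.53) at E12.5 and 4.75-fold (4.14 to 5.45) at E11.5, and Skap1, which encodes a T cell adaptor, beside Hoxb1, was 3.66-fold (3.497 to 3.83) at E12.5 and 2.85-fold (2.70 to 3.02) at E11.5. Genes past 2-fold thus flanked both ends of cluster B and the posterior end of cluster D at both stages, while 0 of 9 measured neighbours of cluster C reached 2-fold at either stage. The neighbour with the lowest log2 ratio at E12.5 was Atf2, near cluster D, at −1.46.

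**Figure D3:**
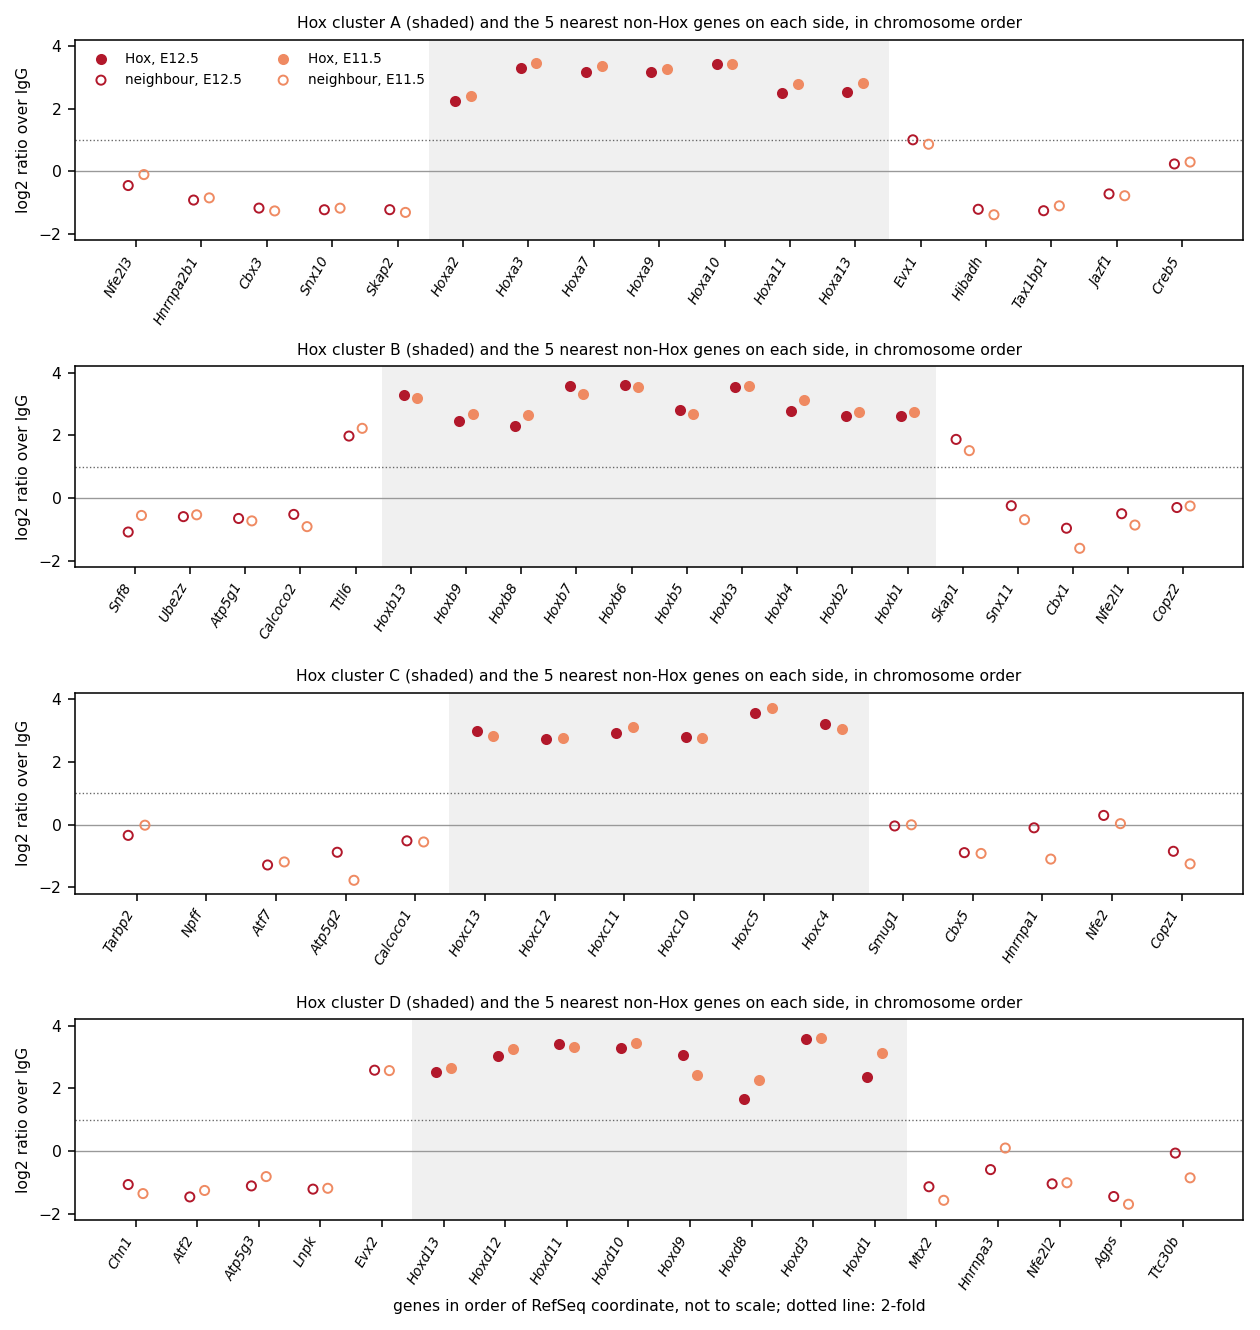
Log2 ratio of H3K27me3 over summed IgG at E12.5 and E11.5 for the measured Hox genes (filled symbols, shaded) and the 5 nearest non-Hox genes on each side (open symbols), in chromosome order and not to scale. All Hox symbols lie above the dotted 2-fold line, and open symbols above it lie next to clusters A, B and D but not C.

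The wider Hox system is given by role. Of the cofactors that bind DNA together with Hox proteins (the Pbx, Meis and Pknox families), 0 of 9 were at least 2-fold over summed IgG at E12.5, with Meis2 highest at a log2 ratio of 0.98 and Pbx3 lowest at −1.31, and 1 of 9 was at E11.5 (Pknox2, 1.16). Of 7 homeobox genes linked to the clusters by ancestry, 6 were at least 2-fold at E12.5 and 5 at E11.5. En1, a midbrain and limb gene, was highest at E12.5 (3.15), and Gbx2, a hindbrain gene, was the exception (−0.37). Of the ParaHox genes, the sister group of the Hox clusters, 5 of 5 were at least 2-fold at both stages. Pdx1, the pancreatic regulator, was highest at E12.5 (3.76, above every Hox gene), and Cdx2, which activates trunk Hox genes, was lowest (1.49).

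Upstream of the clusters, 10 of 11 genes of retinoic acid, Wnt, Fgf and Gdf signalling had enough reads, and 5 of 10 were at least 2-fold at each stage. Those were Wnt3, Wnt3a, Fgf8, Cyp26a1 and Cyp26c1, of which Cyp26c1, an enzyme that degrades retinoic acid, was highest at E12.5 (3.25). The retinoic acid receptor gene Rarb was lowest (−0.80). For all these lists the share among all autosomal genes was 14.5% at E12.5 and 15.4% at E11.5.

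Between the stages the Hox clusters changed little. The 31 genes together were 0.960 (0.926 to 0.996) times as high at E12.5 as at E11.5, with clusters A, B, C and D at 0.906 (0.849 to 0.967), 0.995 (0.926 to 1.07), 1.02 (0.937 to 1.10) and 0.948 (0.873 to 1.03). The intervals of all 31 genes together and of cluster A lay just below 1, and the others included it. The median log2 change of the Hox genes was −0.12, with 10 genes higher and 21 lower at E12.5, beside a median of 0.01 over 16526 autosomal genes whose quartiles were −0.21 and 0.22. At least 1.5-fold higher at E12.5 was 1 of 31 (Hoxd9), beside 4.73% of all genes, and at least 1.5-fold lower were 2 of 31 (Hoxd1 and Hoxd8), beside 5.32% of all genes. These shares were near those of all genes. The counting interval lay above 1 for 1 of 31 genes (Hoxd9), beside 7.91% of all genes, and below 1 for 2 of 31 (Hoxa3 and Hoxd1), beside 10.4% of all genes.

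The largest changes upward were in Hoxd9, Hoxb7 and Hoxc13. Hoxd9, which contributes to the hindlimb and its motor neurons, had 16.9 RPM with H3K27me3 at E12.5 and 10.6 at E11.5, against 0.737, 1.98 and 1.05 with IgG at E11.5, E12.5 and E13.5. Its fold between the stages was 1.60 (1.01 to 2.60), and it rests on 85 reads at E12.5 and 25 at E11.5. Hoxb7 had 48.8 RPM at E12.5 and 39.9 at E11.5, against 2.95, 4.62 and 2.80 with IgG, a fold of 1.22 (0.961 to 1.57). Hoxc13 had 47.6 at E12.5 and 42.0 at E11.5, against 8.10, 4.62 and 4.56 with IgG, a fold of 1.133 (0.893 to 1.45). The intervals of Hoxb7 and Hoxc13 included 1.

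The largest changes downward were in Hoxd1, Hoxd8 and Hoxb8. Hoxd1 had 13.1 RPM with H3K27me3 at E12.5 and 22.9 at E11.5, against 0.737, 3.30 and 1.58 with IgG at E11.5, E12.5 and E13.5, and its fold between the stages was 0.574 (0.394 to 0.838), from 66 and 54 reads. For Hoxd8 the fold was 0.632 (0.370 to 1.09) and for Hoxb8 0.764 (0.493 to 1.20), from the levels given above, and both intervals included 1. Position 8 as a whole, measured by these 2 genes, was 0.708 (0.507 to 0.995), and position 1, measured by Hoxb1 and Hoxd1, was 0.716 (0.549 to 0.938). Hoxa3 differed less, at 0.889 (0.810 to 0.977), but held the most reads. With 1 library at each stage, these folds compare 2 libraries and not 2 stages.

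**Figure D4:**
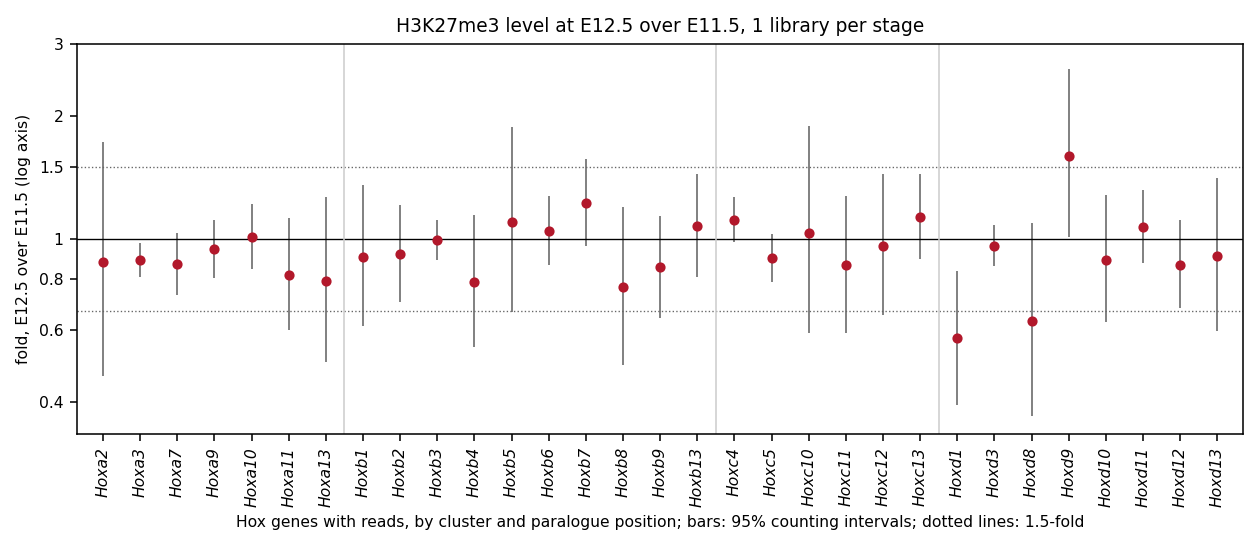
Fold of the H3K27me3 level at E12.5 over E11.5 (log axis) for each of the 31 Hox genes, with 95% counting intervals and dotted lines at 1.5-fold in either direction. Hoxd9 lies above the upper line at 1.60, and Hoxd1 and Hoxd8 lie below the lower one at 0.574 and 0.632.

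Both alleles of the Hox clusters carried the mark. The files name the alleles only by order, so the share of reads on the second allele is given, and which strain it is was not stated. Over all 31 genes it was 51.7% (50.6% to 52.7%) in H3K27me3 at E12.5 and 50.9% (49.4% to 52.5%) at E11.5, against 48.8% (46.1% to 51.5%) in summed IgG, with exact Clopper-Pearson 95% intervals. Among single genes at E12.5 the share ran between 33.3% for Hoxc10, from 42 reads, and 59.8% for Hoxa11, from 117 reads. At E11.5 it ran between 36.8% for Hoxc10, from 19 reads, and 68.8% for Hoxa2, from 16 reads. Every measured Hox gene had reads on both alleles in both H3K27me3 libraries.

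An exact two-sided binomial test against the share over all autosomal reads of the library (50.9% at E12.5 and 51.6% at E11.5), adjusted by Benjamini-Hochberg over all autosomal genes with at least 10 reads, called 2 of 31 Hox genes at E12.5, beside 17.5% of all genes. At an unadjusted p under 0.05 there were 6 of 31, beside 25.6% of all genes. At E11.5 the same test called 0 of 31, beside 11.7% of all genes, with 3 of 31 at an unadjusted p under 0.05, beside 20.6% of all genes. The Hox share called at E12.5 was 6.45%, below the share over all genes, and the part of read number in this was not tested. These tests compare read counts within a library and cover counting error only.

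The 2 called genes were both in cluster A. Hoxa3 had a second-allele share of 55.8% (53.0% to 58.5%; 724 of 1298 reads) in H3K27me3 at E12.5, with an adjusted p of 0.0045 in the exact binomial test, and 50.7% (46.8% to 54.5%; 347 of 685 reads) at E11.5. In IgG it was 51.2%, 57.8% and 50.7% at E11.5, E12.5 and E13.5, from 41, 45 and 134 reads. Hoxa7 had 58.6% (53.4% to 63.7%; 217 of 370 reads) at E12.5, with an adjusted p of 0.021 in the exact binomial test, and 55.0% (47.8% to 62.0%; 110 of 200 reads) at E11.5. Its IgG shares were 61.9%, 35.7% and 50%, from 21, 14 and 28 reads. The E12.5 share of Hoxa3 lay within the range of its IgG shares, as did that of Hoxa7. The upper ends of these ranges rest on 45 and 21 IgG reads, too few to tell whether IgG has the same share.

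Set against summed IgG with Fisher's exact test (two-sided), 0 of 26 Hox genes with enough reads were called at E12.5, beside 7.26% of all genes, and 0 of 26 at E11.5, beside 4.74% of all genes. At an unadjusted p under 0.05 there were 0 of 26 at E12.5, beside 16.1% of all genes, and 1 of 26 at E11.5, beside 13.51% of all genes. The adjusted p of Hoxa3 in this Fisher's exact test at E12.5 was 0.786 and that of Hoxa7 0.723. Between the H3K27me3 libraries at E12.5 and E11.5, Fisher's exact test called 0 of 31, beside 0.53% of all genes, with 2 of 31 at an unadjusted p under 0.05, beside 6.03% of all genes.

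Cluster A as a whole had a second-allele share of 56.1% (54.2% to 58.0%) in H3K27me3 at E12.5 and 53.1% (50.5% to 55.8%) at E11.5, against 52.6% (47.9% to 57.3%) in summed IgG, whose interval includes the E11.5 share and the E12.5 share. Over all of chromosome 6 the share was 50.4% at E12.5 and 50.5% at E11.5, against 49.6% in summed IgG. At E12.5 the shares of Hoxa3, Hoxa7, Hoxa9, Hoxa10 and Hoxa11 were 55.8%, 58.6%, 56.3%, 56.4% and 59.8%. Those of Hoxa2 and Hoxa13 were 46.7% and 40.7%. Outside cluster A, the highest shares were those of Hoxb13 and Hoxd8, at 58.2% and 57.1%. How common such shares are among all autosomal genes was not counted. The other clusters stood closer to balance at E12.5, with 50.8% (48.7% to 52.8%) for B, 49.0% (46.7% to 51.2%) for C and 48.9% (46.5% to 51.3%) for D. At E11.5 they had 50.05% (47.1% to 53.0%), 51.0% (47.6% to 54.3%) and 48.5% (45.1% to 51.9%), against 44.0% (38.7% to 49.4%), 49.5% (43.7% to 55.3%) and 47.8% (41.5% to 54.2%) in summed IgG. Over all of chromosomes 11, 15 and 2 the share was 51.4%, 54.2% and 51.2% at E12.5 and 52.0%, 54.9% and 52.3% at E11.5. In summed IgG it was 52.1%, 51.7% and 52.6%. The interval of cluster A in H3K27me3 lay above its chromosome's share at E12.5 and included it at E11.5. That of cluster C lay below its chromosome's share at both stages. That of cluster D did so at E11.5, and that of cluster B in summed IgG.

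**Figure D5:**
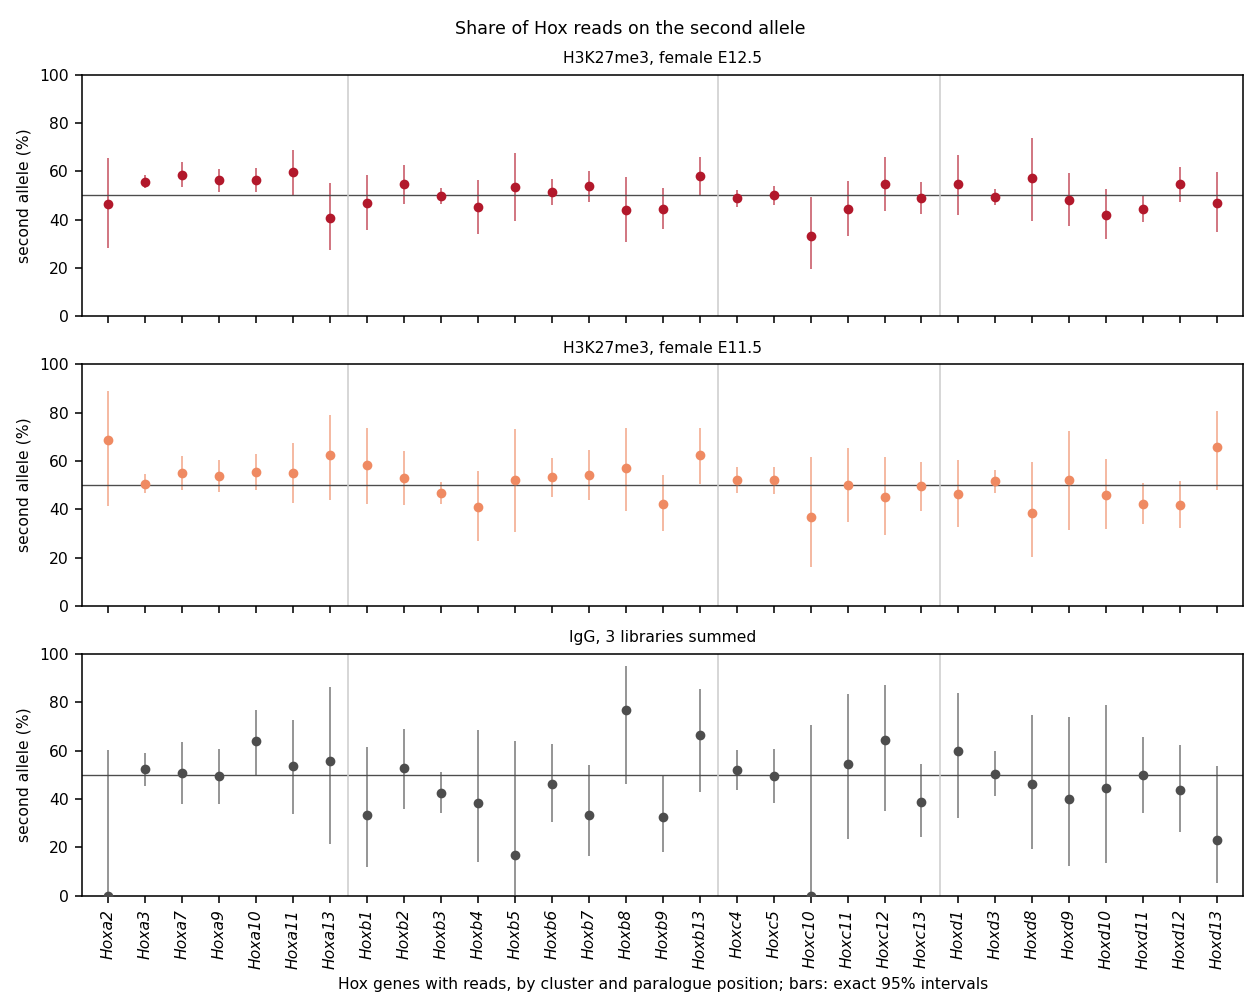
Share of reads on the second allele (percent, axis 0 to 100) at each of the 31 Hox genes in H3K27me3 at E12.5 (top), H3K27me3 at E11.5 (middle) and the 3 IgG libraries summed (bottom), with exact 95% intervals and a line at 50%. Most symbols lie near the line, those of Hoxa3, Hoxa7, Hoxa9, Hoxa10, Hoxa11, Hoxb13 and Hoxd8 lie above 55% at E12.5, and the IgG intervals are wide because few reads lie under them.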

How the data were processed

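The authors deposited, in each of the 5 files used, raw counts of reads per gene for a first and a second allele, without normalisation. A further column deposited by the authors is a fraction, which came out as the second allele's reads over the reads of both alleles. Another deposited column holds a gene length in bases. Per the submitters' processing notes, the build was mm10 and the tools were Bowtie2 2.4.2, cutadapt 4.1, deepTools 3.5.1, FastQC 0.11.9, featureCounts, GATK, MACS2 2.2.7.1, MultiQC 1.13, SAMtools 1.11 and Trim Galore 0.6.6. How duplicates were treated, how alleles were assigned and how overlapping genes were counted is not given in the sources used here. Only reads over a strain variant can be assigned, so these counts are a part of each library whose size is unknown, and duplicates would make the counting intervals too narrow. Of 8 samples in the labels, 3 labelled as replicate 2 were not analysed here.

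Levels were computed as reads of both alleles per 1000000 reads of chromosomes 1 to 19 (RPM). Log2 ratios used a pseudocount of 1 RPM, for genes that reached 20 reads when both sides were added. Folds without a pseudocount carry exact conditional binomial 95% intervals, and shares carry Clopper-Pearson intervals. The allele tests needed at least 10 reads and used an adjusted threshold of 0.05 over all autosomal genes. Scripts ran in Python 3.11.15 with NumPy 2.4.6, pandas 2.3.3 and SciPy 1.17.1, and were tested on simulated data. Genes named with every library's value are the highest and lowest log2 ratio at E12.5 per cluster, the genes called by an allele test, and the 3 largest changes between stages in each direction. Of the lists and neighbours, the highest and lowest are named, plus the genes past a threshold. The members and lists were chosen with earlier results of these data known. Of 39 rows that match the naming rule, 1 is not reported here. Alternatives were other IgG references, pseudocounts, read minimums, thresholds and centring, and leaving out Hoxa3, Hoxc5 and Hoxd3.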

Additional observations from a re-analysis of the deposited data

How the results depend on the processing

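No paired analysis was possible because each group had 1 library with a file, and for the same reason no H3K27me3 library could be left out. The number of Hox genes at least 2-fold over IgG changed only with the number of genes tested, as 17 of 17 at both stages with at least 20 reads in summed IgG, an alternative chosen after seeing the data. The median Hox log2 ratio at E12.5, 2.99, was 2.87 with the IgG library of that stage, 3.13 with IgG E13.5 alone, 2.80 with IgG E13.5 left out, 3.23 with a pseudocount of 0.5, 2.58 with a pseudocount of 2, 3.46 with the median of all genes set to 0, 3.28 with at least 20 IgG reads, and 2.85 without Hoxa3, Hoxc5 and Hoxd3 (also chosen after seeing the data). At E11.5, 3.11 became 3.25 with IgG E13.5 alone, 2.90 with it left out, 3.33 and 2.70 with pseudocounts of 0.5 and 2, 3.24 with at least 50 reads, 3.60 when centred, 3.30 with at least 20 IgG reads and 2.95 without those 3 genes. Cluster A at E12.5, 8.19-fold over IgG of that stage, was 10.2-fold over summed IgG and 11.9-fold over IgG E13.5; at E11.5, 8.35-fold became 11.2-fold and 13.1-fold. Cluster B at E12.5, 7.86-fold, became 11.4-fold over summed IgG and 13.6-fold over IgG E13.5, and at E11.5, 9.79-fold, became 13.7-fold over IgG E13.5, and cluster C at E12.5, 8.80-fold, became 11.8-fold over IgG E13.5. The IgG level at Hox genes was lowest in the E13.5 library, and the cause was not tested. Of the stage changes, 1 rather than 2 Hox genes was at least 1.5-fold lower with a pseudocount of 2, and 0 passed 2-fold in either direction. The allele test at E12.5 called 3 Hox genes, with Hoxa9 added, against an expected share of 50%. The median second-allele share over single genes with at least 10 reads in the library was 49.8% in place of the pooled 51.7% at E12.5. In IgG at E12.5 that median was 58.1% in place of 50.3%, and in IgG at E11.5 it was 53.4% in place of 47.5%. The share thus crossed 50% in H3K27me3 at E12.5 and in IgG at E11.5. Most Hox genes had fewer than 10 reads in each of these IgG libraries, so those medians leave out most of the genes in the pooled shares. In all, 31 values moved and 63 did not, and 0 folds or log2 ratios changed direction. Depth limits single genes: 14 of 31 had fewer than 20 summed IgG reads.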
